A study of Caenorhabditis elegans with 10 samples.

Results

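The genes described here are a set of 9 named genes of Caenorhabditis elegans, 8 of which code for chaperones or folding enzymes of the endoplasmic reticulum. They were chosen by name: hsp-3, hsp-4, enpl-1, dnj-7, crt-1, pdi-1, pdi-2, pdi-6 and ckb-2, out of 46904 genes in the deposited count tables. Only pdi-6 and dnj-7 had enough counts for a test. Apart from wild type, the strains carry the R9Q mutation of the kinesin gene unc-104, alone or with a suppressor mutation (unc-16, G265R or T102I). Relative to the strain with R9Q alone, the fitted fold of pdi-6 was 2.40 with the unc-16 suppressor, 2.91 with G265R and 1.25 with T102I. For dnj-7 it was 1.48 with the unc-16 suppressor, 1.78 with G265R and 1.04 with T102I. The value of pdi-6 with G265R rested on 1 library, and the direction with T102I depended on the setting. With the unc-16 suppressor, the 2 libraries differed as well, at 1.69-fold and 3.11-fold the R9Q mean of pdi-6. With 2 libraries per strain, no difference of either gene passed the adjusted threshold. The name of the set does not cover ckb-2, which belongs to the choline kinase family of enzymes.

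RNA from whole animals was sequenced in 5 strains with 2 libraries each, 10 libraries in all, with no treatment. The strains were unc-104(R9Q) with a mutation in unc-16, unc-104 with both R9Q and G265R, unc-104 with both R9Q and T102I, unc-104(R9Q) alone, and wild type (WT). They are called R9Q unc-16, R9Q G265R, R9Q T102I, R9Q and WT here, so the 3 suppressed strains and R9Q all carry the R9Q change in the kinesin gene unc-104. The labels give neither the unc-16 allele nor the stage of the animals nor whether separate cultures were used for the libraries of a strain, and p-values then measure only the spread between these libraries. The series was designed to compare unc-104 mRNA among the strains. In whole animals, fewer cells of a type and less RNA per cell cannot be told apart.

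The endoplasmic reticulum is where secreted and membrane proteins enter the secretory pathway, are glycosylated and fold. Hsp70 chaperones of the BiP type hold unfolded chains, J-domain proteins drive their ATP cycle, an Hsp90 of the GRP94 type acts on a narrower set of clients, and calreticulin binds glycoproteins and calcium. Protein disulfide isomerases form and rearrange disulfide bonds. When unfolded proteins build up, the sensors IRE-1, PEK-1 and ATF-6 start the unfolded protein response, in which spliced XBP-1 raises transcription of many chaperone genes. hsp-4 is the usual reporter gene of that response in C. elegans. Collagens of the cuticle, which are made in bulk before each molt, pass through the same compartment.

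Reads counted on a single transcript numbered 6239272 to 7160785 per library. Another 57.7 to 61.8% of aligned entries (reads or their alignments) fell in more than 1 transcript and were counted on none. A total of 3 libraries stood apart from the other 7 in transcripts of the mitochondrial genome. Those transcripts took 0.0194% of counts in R9Q unc-16 replicate 2, 0.0200% in R9Q G265R replicate 2 and 0.0238% in R9Q T102I replicate 1, against 1.58 to 5.51% in the other 7 libraries. Markers of intestine summed to 2491 to 11777 CPM (each library's counts as parts of its total, brought to a common depth by the TMM method), those of muscle to 2736 to 7578 CPM and those of neurons to 519 to 1001 CPM. Sperm markers summed to 3.02 to 7.65 CPM and yolk genes to 0.775 to 14.4 CPM in the 10 libraries. The fold changes of pdi-6 and dnj-7 are given with and without these 3 libraries, and levels are given for each library.

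The unique counts of the 9 genes split them sharply. Of the 9 genes, 6 had a count in any library and 2 passed the count filter of the test. Those 2 were the members with a single transcript in the deposited tables, while the other 7 had more than 1. Reads shared by transcripts of the same gene were not counted, so a count near 0 here is no measure of how strongly one of those 7 genes was expressed. A count of 0 allowed up to 3 counts in a library, which was 0.386 to 0.503 CPM, a floor that covers counting error only.

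Among the BiP genes, hsp-3 (WBGene00002007; WBcel235 chromosome X, 6089028 to 6092124, minus strand) was listed with 8 transcripts and had 30 unique counts over the 10 libraries. They were 16 and 3 in R9Q unc-16, 0 and 5 in R9Q G265R, 0 and 1 in R9Q T102I, 0 and 4 in R9Q, and 1 and 0 in WT. All 30 fell on 1 of the 8 transcripts, and that transcript is not in the reference annotation used here. R9Q unc-16 replicate 1 alone held 16 of the 30 counts, or 2.45 CPM, and the counts of the strains otherwise overlapped. Its paralog hsp-4 (WBGene00002008; chromosome II, 7350112 to 7352645, minus strand) had 3 unique counts in all, 1 each in R9Q unc-16 replicate 1, R9Q replicate 2 and WT replicate 1. All 3 fell on the transcript that has 66 exon bases outside the other transcripts, while the other 2 transcripts had 0 counts. The reporter gene of the unfolded protein response was therefore not measurable in these tables.

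enpl-1 (WBGene00011480; chromosome IV, 11119298 to 11123155, plus strand), the GRP94 gene, was listed with 8 transcripts and had 0 unique counts in all 10 libraries. crt-1 (WBGene00000802; chromosome V, 6098992 to 6100542, minus strand), the calreticulin gene, had 2 transcripts and 1 unique count, in R9Q unc-16 replicate 1. Its neighbour smut-1 lies on the opposite strand and shares 92 exon bases with it, and smut-1 itself had 152 to 319 counts per library. Neither enpl-1 nor crt-1 gave a value that could be compared between strains.

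The disulfide isomerase genes pdi-1 (WBGene00003962; chromosome III, 3699739 to 3701461, minus strand) and pdi-2 (WBGene00003963; chromosome X, 4524155 to 4526536, plus strand) had 0 unique counts in all 10 libraries. pdi-1 was listed with 2 transcripts and pdi-2 with 6. PDI-2 also serves as the beta subunit of the prolyl 4-hydroxylases that modify cuticle collagens. The choline kinase family gene ckb-2 (WBGene00000512; chromosome III, 4367949 to 4370160, plus strand) had 2 transcripts and 6 unique counts, all on 1 of them. They were 2 and 1 in R9Q and 0 and 3 in WT, and 0 in each of the 6 libraries of the suppressed strains, which is at the floor of 3 counts per library.

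**Figure D1:**
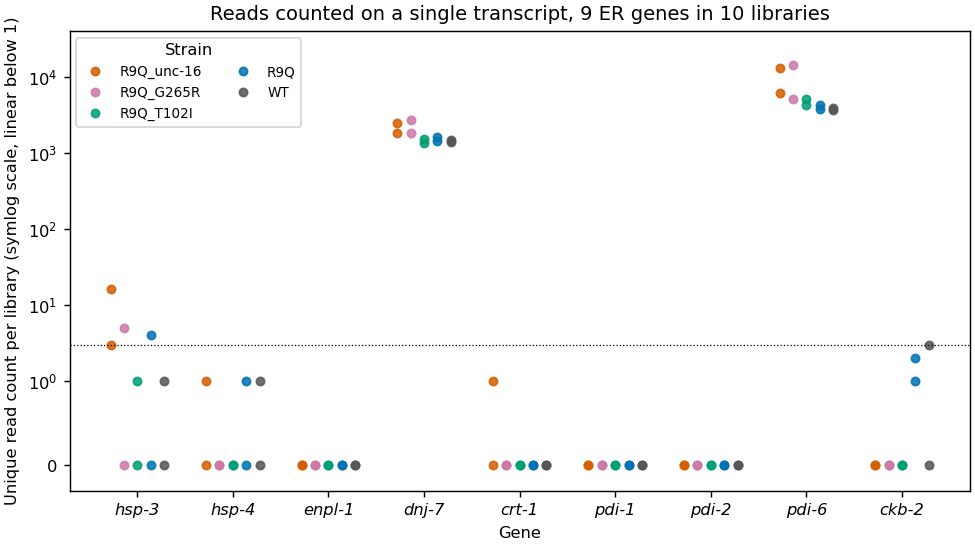
Reads counted on a single transcript for each of the 9 genes (horizontal axis) in each of the 10 libraries, on a symmetric log scale that is linear below 1, coloured by strain. The dotted line marks the floor of 3 counts; pdi-6 and dnj-7 have at least 1344 in every library, hsp-3 reaches 16 in 1 library, and the other 6 genes lie at or under 3.

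The split by transcript number was also seen across the tables. Among protein-coding genes of the tables, 785 of 13541 with 1 transcript had 0 counts in all 10 libraries, or 5.80%. With 2 or more transcripts, 2330 of 6361 had 0 counts in all of them, or 36.6%. Of the 7 members with more than 1 transcript, 3 were at 0 throughout.

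**Figure D2:**
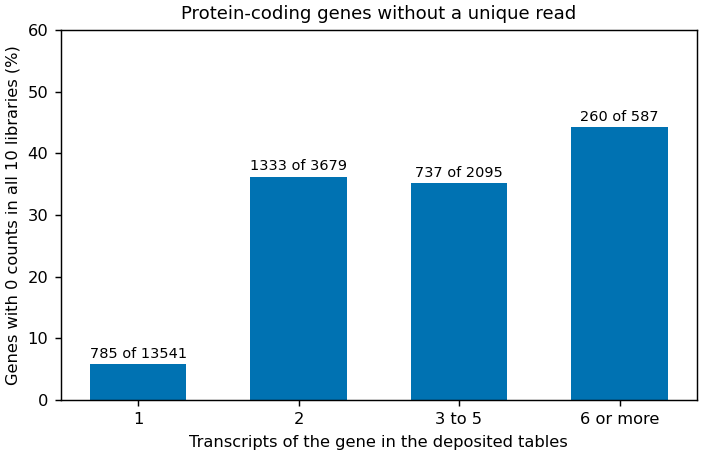
Share of protein-coding genes with 0 unique counts in all 10 libraries (vertical axis, %), by the number of transcripts of the gene in the deposited tables (horizontal axis). Bars carry the number of genes at 0 out of all genes of the class; the share is 5.80% for 1 transcript and 35.2 to 44.3% for the classes with more.

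pdi-6 (WBGene00015168; chromosome X, 7066342 to 7068563, minus strand) codes for a protein disulfide isomerase of the PDIA6 type. It has 1 transcript of 1643 exon bases and held 63813 unique counts, so its values rest on 3723 to 14423 counts per library. Its level was 944 and 1733 CPM in R9Q unc-16, 832 and 2417 CPM in R9Q G265R, 796 and 600 CPM in R9Q T102I, 558.2 and 557.7 CPM in R9Q, and 588 and 577 CPM in WT. The 2 highest libraries were R9Q G265R replicate 2 and R9Q unc-16 replicate 2, and both belong to the low-mitochondrial libraries. All 6 suppressed libraries lay above both R9Q libraries, and both R9Q libraries lay below both WT libraries. The share of tested genes with all 6 so placed was not determined. The mean of pdi-6 over all libraries was higher than that of 98.9% of the 12267 tested genes. A noncoding gene on the opposite strand, B0403.9, overlaps pdi-6 without sharing exon bases and had 0 to 4 counts per library.

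Strain means of pdi-6, with the SD of 2 libraries, were 1338 ± 558 CPM in R9Q unc-16, 1624 ± 1121 CPM in R9Q G265R, 698 ± 138 CPM in R9Q T102I, 558 ± 0.31 CPM in R9Q and 582 ± 7.8 CPM in WT. In the order of the means, R9Q G265R and R9Q unc-16 had libraries that overlapped and did not differ beyond their spread. R9Q T102I, WT and R9Q followed, each without overlap with its neighbours. The lower R9Q T102I library, at 600 CPM, was close to the higher WT library, at 588 CPM. Both R9Q libraries lay below both WT libraries in 32.7% of tested genes, and for the other neighbours the share was not determined. The replicates of R9Q G265R differed 2.91-fold and those of R9Q unc-16 1.84-fold, against 1.02-fold in WT and less in R9Q.

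dnj-7 (WBGene00001025; chromosome X, 7194564 to 7198291, plus strand) codes for the J-domain protein of the DNAJC3 (P58IPK) type, a partner of BiP. It has 1 transcript of 1965 exon bases in 10 exons and held 17690 unique counts, 1344 to 2685 per library. Its level was 281 and 335 CPM in R9Q unc-16, 292 and 450 CPM in R9Q G265R, 211 and 220 CPM in R9Q T102I, 208 and 207 CPM in R9Q, and 227 and 219 CPM in WT. The 4 libraries of R9Q unc-16 and R9Q G265R were above the other 6, and the share of tested genes so arranged was not determined. The R9Q T102I libraries overlapped those of WT and lay barely above those of R9Q. Its mean level was higher than that of 94.8% of tested genes.

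Strain means of dnj-7 were 308 ± 38 CPM in R9Q unc-16, 371 ± 112 CPM in R9Q G265R, 216 ± 6.1 CPM in R9Q T102I, 208 ± 0.84 CPM in R9Q and 223 ± 5.7 CPM in WT (SD, n = 2 each). Here too R9Q G265R and R9Q unc-16 overlapped, and so did WT and R9Q T102I. The spread within R9Q G265R was the widest of the 5 strains for both genes.

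**Figure D3:**
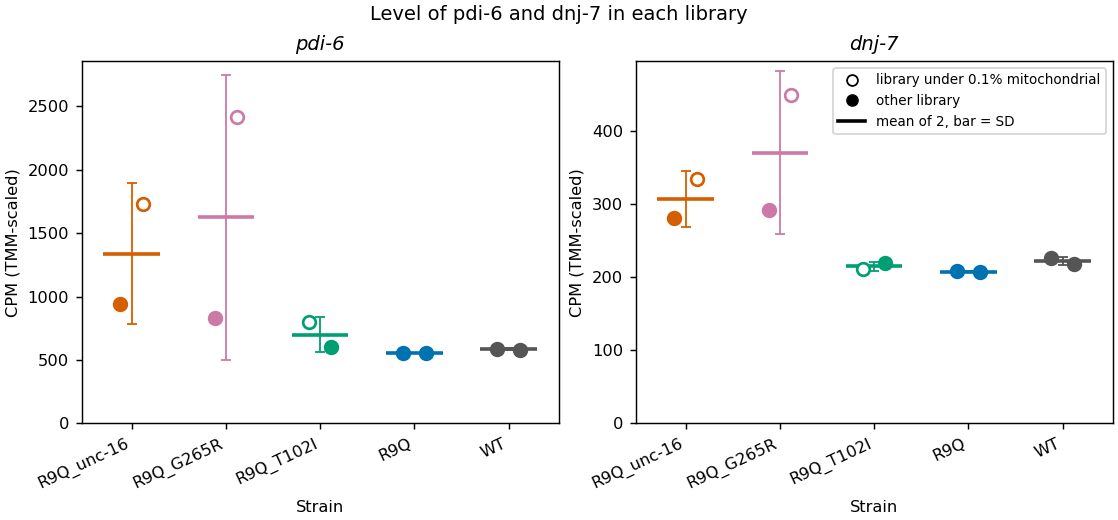
Level of pdi-6 and dnj-7 (vertical axes, TMM-scaled CPM) in each library of the 5 strains (horizontal axis). Points are libraries, open where mitochondrial transcripts took under 0.1% of counts; long bars are means of 2 libraries and thin bars SDs. Libraries of R9Q unc-16 and R9Q G265R lie above those of R9Q and WT in both genes, and the share of tested genes so arranged was not determined.

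R9Q was first compared with WT, which sets the unc-104 change against the unchanged animal. pdi-6 averaged 558 ± 0.31 CPM in R9Q and 582 ± 7.8 CPM in WT (SD, n = 2 each), and dnj-7 averaged 208 ± 0.84 CPM in R9Q and 223 ± 5.7 CPM in WT. The log2 fold change of pdi-6 was -0.06 (SE 0.49, 95% interval -1.20 to 1.07), with adjusted p = 1 in edgeR's quasi-likelihood test over all tested genes. That of dnj-7 was -0.10 (SE 0.24, 95% interval -0.65 to 0.45), also with adjusted p = 1. Neither gene was called at an adjusted p of 0.05, and 0.31% of tested genes were called in this comparison. Both genes had both R9Q libraries below both WT libraries, an arrangement found in 32.7% of tested genes. All 5 strains share 1 estimate of spread in this fit, and replicates of the suppressed strains differed more than those of R9Q and WT.

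R9Q T102I was compared with R9Q to set the second unc-104 change T102I against R9Q alone. The log2 fold change of pdi-6 was 0.32 (SE 0.49, 95% interval -0.82 to 1.46, adjusted p = 0.906 in the same test). That of dnj-7 was 0.05 (SE 0.24, 95% interval -0.50 to 0.61, adjusted p = 0.972). Neither was called, where 0.562% of tested genes were. Both had both R9Q T102I libraries above both R9Q libraries, as did 28.0% of tested genes. Over the mean of R9Q, pdi-6 was 1.43-fold in the low-mitochondrial library of R9Q T102I and 1.08-fold in the other, and dnj-7 was 1.02-fold and 1.06-fold in the same libraries. A fit with a term for the low-mitochondrial libraries turned the log2 fold changes to -0.14 for pdi-6 and -0.08 for dnj-7, so the direction in R9Q T102I depended on the setting.

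In R9Q G265R against R9Q, which sets the second unc-104 change G265R against R9Q alone, pdi-6 had a log2 fold change of 1.54 (SE 0.50, 95% interval 0.38 to 2.70). Its adjusted p over all tested genes was 0.443 in edgeR's quasi-likelihood test. dnj-7 had a log2 fold change of 0.84 (SE 0.24, 95% interval 0.28 to 1.39) with adjusted p = 0.370 in that test. Neither was called. The percentage of tested genes called in this comparison was 0.0, while 8.71% had an unadjusted p under 0.05, or 1069 genes, and the DESeq2 Wald test called 229 genes. Both members had both R9Q G265R libraries above both R9Q libraries, as did 21.3% of tested genes.

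The size of the difference in R9Q G265R rested on 1 library. Over the mean of R9Q, pdi-6 was 1.49-fold in R9Q G265R replicate 1 and 4.33-fold in replicate 2. dnj-7 was 1.41-fold and 2.17-fold in those libraries. Without R9Q G265R replicate 2, the log2 fold change of pdi-6 was 0.57, and without replicate 1 it was 2.14.

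In R9Q unc-16 against R9Q, which sets the added unc-16 mutation against R9Q alone, pdi-6 had a log2 fold change of 1.26 (SE 0.50, 95% interval 0.11 to 2.42). Its adjusted p was 0.225 in edgeR's quasi-likelihood test. dnj-7 had a log2 fold change of 0.57 (SE 0.24, 95% interval 0.01 to 1.12) with adjusted p = 0.254. Neither was called, against 0.668% of tested genes called. Both had both R9Q unc-16 libraries above both R9Q libraries, as did 22.8% of tested genes. pdi-6 was 1.69-fold and 3.11-fold the R9Q mean in replicates 1 and 2, and dnj-7 was 1.35-fold and 1.61-fold. Replicate 2 is the low-mitochondrial library, and without it the log2 fold change of pdi-6 was 0.74.

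**Figure D4:**
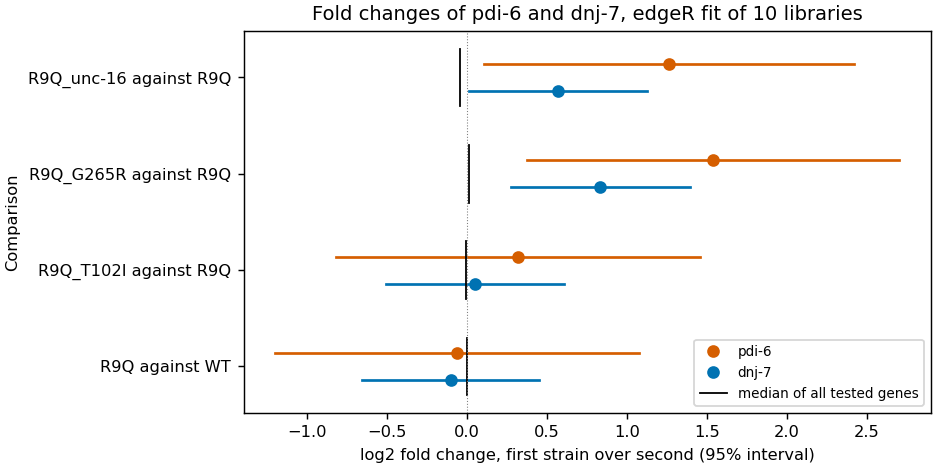
Log2 fold changes of pdi-6 and dnj-7 (horizontal axis) in the 4 comparisons, first strain over second, from the edgeR fit of 10 libraries, with 95% intervals. Short black lines are the median of all tested genes; intervals of both genes exclude 0 in R9Q unc-16 and R9Q G265R before adjustment, and no adjusted p is under 0.05.

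The comparisons were repeated without the 3 low-mitochondrial libraries, a setting added after the data were seen. It leaves 1 library in each suppressed strain, which is assumed to vary like the WT and R9Q libraries. The full pairs did not: their chi-square per degree of freedom was 1.92 in WT and 2.13 in R9Q. It was 69.0 in R9Q T102I, 159 in R9Q G265R and 173 in R9Q unc-16, pairs that include the low-mitochondrial libraries. The p-values of this fit therefore rest on an assumption that could not be checked. In R9Q unc-16 the log2 fold change was then 0.80 for pdi-6 and 0.47 for dnj-7, with edgeR adjusted p = 1.5e-20 and 8.5e-09. In R9Q G265R it was 0.56 and 0.47, with adjusted p = 2.6e-14 and 2.1e-08. In R9Q T102I it was 0.07 for pdi-6 and 0.05 for dnj-7, and in R9Q against WT it was -0.06 for pdi-6 and -0.10 for dnj-7, with no adjusted p under 0.05. hsp-3 also entered this fit, with a log2 fold change of 3.13 (SE 1.13) in R9Q unc-16. It passed the count filter only through the 16 counts of R9Q unc-16 replicate 1, the library that also set its fold change. Its other kept libraries had at most 4 counts, so this value is no test of hsp-3. This fit called 50.5% of tested genes in R9Q unc-16 and 33.9% in R9Q G265R, in either direction, so a call in it sets the members apart little. With no count filter and all 10 libraries, pdi-6 was called higher in R9Q unc-16 and R9Q G265R (edgeR adjusted p = 0.00379 and 0.000750), where 5.03% and 1.83% of genes were called in either direction. The 3 suppressed strains were all compared with the same R9Q libraries, so their values are not independent of each other.

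The ratio of the 2 genes differed among libraries. Per kilobase of exon, pdi-6 stood at 4.02 and 6.18 times the level of dnj-7 in R9Q unc-16, 3.41 and 6.42 times in R9Q G265R, 4.51 and 3.27 times in R9Q T102I, 3.20 and 3.22 times in R9Q, and 3.10 and 3.16 times in WT. The 3 highest ratios were those of the 3 low-mitochondrial libraries. pdi-6 and dnj-7 had a Pearson correlation of 0.949 in log2(CPM + 1) over the 10 libraries, which share strains and the low-mitochondrial set, and 6 tested genes were closer to pdi-6. Over the 7 libraries outside that set the correlation was 0.960. The 5 non-members closest to pdi-6 were snrp-40.1 (r = 0.971), zipt-7.2 (0.966), slc-30A5 (0.962), Y65B4BR.1 (0.961) and dct-19 (0.960). Their levels differed widely. snrp-40.1 lay between 53.2 and 95.5 CPM, while dct-19 lay between 0 and 52.2 CPM.

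Molting genes and mitochondrial transcripts also differed between the libraries in which pdi-6 was high. The median level of the 12 tested molting genes, of 18 listed, was 11.9 and 362 CPM in R9Q unc-16, 3.27 and 67.0 CPM in R9Q G265R, 92.6 and 84.2 CPM in R9Q T102I, 2.05 and 2.44 CPM in R9Q, and 1.29 and 1.78 CPM in WT. All 18 summed to 214 and 4057 CPM in R9Q unc-16, 54.95 and 1016 CPM in R9Q G265R, 1045 and 1048 CPM in R9Q T102I, 66.7 to 72.9 CPM in R9Q, and 72.8 to 81.5 CPM in WT, with 5 to 7 of the 18 at 0 in each library. R9Q G265R replicate 1 had the lowest summed molting level, while its median of 3.27 CPM was above all R9Q and WT libraries. Its pdi-6 level of 832 CPM was also above all R9Q and WT libraries. The 2 libraries highest in pdi-6, R9Q G265R replicate 2 and R9Q unc-16 replicate 2, had molting medians of 67.0 and 362 CPM. In R9Q T102I, where molting genes were high in both libraries, pdi-6 stood at 796 and 600 CPM and dnj-7 at 211 and 220 CPM. The part of molting or of the mitochondrial share in the levels of pdi-6 and dnj-7 was not tested.

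Genes that act with the chaperones were read from lists of pathway genes, and edgeR called no gene of the endoplasmic reticulum lists in any of the 4 comparisons. Of all tested genes, 0.668% were called in R9Q unc-16, 0.0% in R9Q G265R and 0.562% in R9Q T102I, each against R9Q. In R9Q against WT 0.31% were called. With such shares, the lack of a call says little about lists of this length. Among the sensors and transcription factors of the unfolded protein response, 4 of 6 were tested, 2 of them with a single transcript. Their median log2 fold change was 0.26 in R9Q unc-16, 0.20 in R9Q G265R and -0.09 in R9Q T102I, each against R9Q, and 0.15 in R9Q against WT. Over all tested genes the median was -0.04 in R9Q unc-16, 0.01 in R9Q G265R and 0.00 in R9Q T102I, each against R9Q, and 0.00 in R9Q against WT. pek-1, the PERK kinase gene, had 357 and 230 CPM in R9Q unc-16, 206 and 264 CPM in R9Q G265R, 252 and 258 CPM in R9Q T102I, 219 and 199 CPM in R9Q, and 194 and 199 CPM in WT. Its libraries of R9Q G265R overlapped those of R9Q. Without the 3 low-mitochondrial libraries the median of the 4 genes was 0.57 in R9Q unc-16, 0.23 in R9Q G265R and 0.01 in R9Q T102I.

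Of 10 other folding enzymes and chaperones of the compartment, 6 were tested, 3 of them with a single transcript. All 6 had a log2 fold change above 0 in R9Q unc-16 and in R9Q G265R. Over all tested genes, 47.6% lay above 0 in R9Q unc-16 and 51.0% in R9Q G265R. Both libraries lay above both R9Q libraries for 4 of the 6 in R9Q unc-16 and for 3 in R9Q G265R. The rest of the 6 overlapped R9Q. That arrangement above R9Q was found in 22.8% of tested genes in R9Q unc-16 and 21.3% in R9Q G265R. The list medians were 1.01 in R9Q unc-16, 0.53 in R9Q G265R and 0.18 in R9Q T102I against R9Q, and -0.02 in R9Q against WT. uggt-1, which reglucosylates misfolded glycoproteins so that calreticulin and calnexin bind them again, had 672 and 487 CPM in R9Q unc-16, 458 and 543 CPM in R9Q G265R, 363 and 363 CPM in R9Q T102I, 331 and 328 CPM in R9Q, and 313 and 325 CPM in WT. Its log2 fold change was 0.81 in R9Q unc-16 (SE 0.22, edgeR adjusted p = 0.120) and 0.60 in R9Q G265R (SE 0.22, adjusted p = 0.497). All uggt-1 libraries of those 2 strains lay above the other 6, as for dnj-7, without passing the threshold. The share of tested genes so arranged was not determined. With the DESeq2 Wald test uggt-1 passed the threshold in R9Q unc-16 (adjusted p = 0.00676), where that test called 1122 of 11791 genes.

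Of 13 genes for translocation into the endoplasmic reticulum and N-glycosylation, 12 were found and 6 tested. All 6 had log2 fold changes above 0 in each suppressed strain against R9Q. Over all tested genes, 47.6% lay above 0 in R9Q unc-16, 51.0% in R9Q G265R and 49.7% in R9Q T102I. Both libraries lay above both R9Q libraries for 3 of the 6 in R9Q unc-16, 4 in R9Q G265R and 5 in R9Q T102I. The rest of the 6 overlapped R9Q. That arrangement above R9Q was found in 22.8%, 21.3% and 28.0% of tested genes in these strains. The list medians were 1.10 in R9Q unc-16, 1.14 in R9Q G265R and 0.41 in R9Q T102I, and -0.34 in R9Q against WT. ribo-1, a subunit of the oligosaccharyltransferase, had 793 and 739 CPM in R9Q unc-16, 680 and 810 CPM in R9Q G265R, 472 and 499 CPM in R9Q T102I, 404 and 412 CPM in R9Q, and 341 and 316 CPM in WT. Its log2 fold change in R9Q unc-16 was 0.91 (SE 0.20, edgeR adjusted p = 0.0816). The DESeq2 Wald test gave ribo-1 an adjusted p of 3.9e-05 there and called 1122 of 11791 genes. A fit without the 3 low-mitochondrial libraries leaves 1 library in each suppressed strain. The list median was then -0.16 in R9Q unc-16, 0.37 in R9Q G265R and 0.18 in R9Q T102I. The direction of the list median in R9Q unc-16 thus turned without the 3 low-mitochondrial libraries. trap-3, a translocon-associated subunit chosen after its values were seen, had 133 and 979 CPM in R9Q unc-16 and 209 and 213 CPM in R9Q.

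Of 16 genes of ER-associated degradation, which returns misfolded proteins to the cytosol, 8 were tested, with medians of 0.25 in R9Q unc-16, 0.11 in R9Q G265R and 0.15 in R9Q T102I against R9Q, and 0.03 in R9Q against WT. cdc-48.1, the ATPase that pulls substrates out of the membrane, had 980 and 827 CPM in R9Q unc-16, 668 and 808 CPM in R9Q G265R, 441 and 448 CPM in R9Q T102I, 525 and 506 CPM in R9Q, and 415 and 427 CPM in WT. Its log2 fold change was 0.81 in R9Q unc-16 (SE 0.21, edgeR adjusted p = 0.109). With the DESeq2 Wald test cdc-48.1 passed the threshold there (adjusted p = 0.00099), as did 1122 of 11791 genes. Without the 3 low-mitochondrial libraries, which leaves 1 library in R9Q unc-16, the list median there turned to -0.10 over 9 tested genes.

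The catalytic subunits that pair with PDI-2 were followed with the collagen hydroxylases, of which 2 of 4 found were tested. Their median log2 fold change was 1.25 in R9Q unc-16, 0.56 in R9Q G265R and 1.03 in R9Q T102I against R9Q, and 0.02 in R9Q against WT. dpy-18, a prolyl 4-hydroxylase, had 166 and 375 CPM in R9Q unc-16, 109 and 238 CPM in R9Q G265R, 374 and 263 CPM in R9Q T102I, 110 and 110 CPM in R9Q, and 123 and 129 CPM in WT. Without the 3 low-mitochondrial libraries, where 3 hydroxylase genes were tested, the median was 0.63 in R9Q unc-16 and 1.22 in R9Q T102I, and it turned to -0.03 in R9Q G265R. dpy-18 was above its R9Q level in both R9Q T102I libraries, in which dnj-7 was at 1.02-fold and 1.06-fold of its R9Q mean.

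Of the ER calcium genes, which act with calreticulin, 3 of 5 were tested, with medians of 0.12 in R9Q unc-16, -0.23 in R9Q G265R and -0.24 in R9Q T102I against R9Q, and -0.96 in R9Q against WT. All 3 had more than 1 transcript, so their unique counts are a poor measure of expression. Mean levels were 1.91 CPM for sca-1 and 2.40 CPM for itr-1, and the -0.96 is the value of itr-1. Without the 3 low-mitochondrial libraries the ER calcium median turned to 0.15 in R9Q T102I. Of the other choline and phosphatidylcholine genes, the pathway of ckb-2, 10 of 12 were tested, with medians of -0.36 in R9Q unc-16, 0.00 in R9Q G265R and 0.09 in R9Q T102I against R9Q, and -0.47 in R9Q against WT. Only 4 of those 10 had a single transcript, so the same limit holds for these medians. pmt-2, a methyltransferase of that pathway, had 272 and 590 CPM in R9Q unc-16, 426 and 599 CPM in R9Q G265R, 763 and 716 CPM in R9Q T102I, 224 and 244 CPM in R9Q, and 567 and 569 CPM in WT. It was below WT in both R9Q libraries without an adjusted p under 0.05.

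Of 18 chaperones of the cytosol, 15 were found and 6 tested, and edgeR called 1 in R9Q unc-16 against R9Q, where 0.668% of tested genes were called. This was hsp-70, an inducible Hsp70 of the cytosol, at 95.5 and 42.3 CPM in R9Q unc-16, 3.67 and 1.51 CPM in R9Q G265R, 0.629 and 0.993 CPM in R9Q T102I, 1.61 and 1.29 CPM in R9Q, and 1.36 and 0.930 CPM in WT. Its log2 fold change in R9Q unc-16 was 5.56 (SE 0.64, edgeR adjusted p = 0.0249). The call was lost with only the 4 libraries compared (adjusted p = 0.205) and without any single library of WT, R9Q or R9Q T102I (adjusted p 0.0572 to 0.410), while the log2 fold change stayed between 4.90 and 6.02 with single libraries left out. The hsp-70 level was high in both R9Q unc-16 libraries and at most 3.67 CPM in the other 8.

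**Figure D5:**
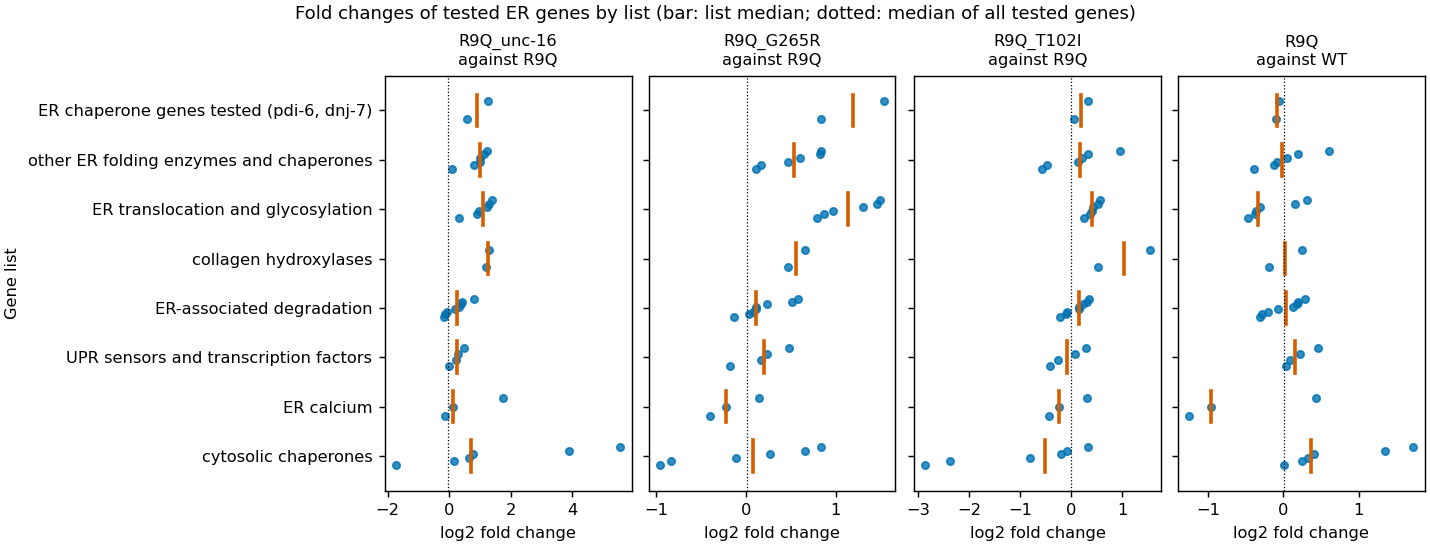
Log2 fold changes (horizontal axes, first strain over second) of the tested genes of each list, in the 4 comparisons. Each point is a gene, bars are list medians and dotted lines the median of all tested genes; the axes of the panels differ in range. Medians of the folding and translocation lists lie to the right in R9Q unc-16 and R9Q G265R, and hsp-70 is the point at 5.56.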

How the data were processed

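The authors deposited raw counts per annotated transcript for each of the 10 libraries, made from total RNA with the KAPA RNA HyperPrep kit, per the labels. Per the submitters' processing notes, the tools were Trim Galore 0.4.4, STAR 2.5.4b and HTSeq 0.9.1 with genome build ce11. Neither the strand setting nor the annotation release is given in the sources used here. Tables listed 61451 transcripts, and their 5 summary entries stayed out of library sizes and tests. Of aligned entries, 33.5 to 38.5% were assigned to a transcript. The count for not aligned made up 49.7 to 49.9% of all entries, and whether these were separate reads was not determined. Transcript names were matched to WBcel235, 56781 by identifier and 4581 by sequence name, and 89 were kept as they are. Counts were summed per gene.

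All 10 libraries were fitted in R 4.3.3 with edgeR 4.0.16: TMM scaling (factors 0.899 to 1.095), filterByExpr with a minimum count of 10, a term per strain, glmQLFit and glmQLFTest (5 residual df), and Benjamini-Hochberg adjustment over 12267 genes. A gene with an adjusted p under 0.05 is called. The F statistic gave the SE and interval of each fold change. Scripts were tested on simulated data. Replicates of a strain differed beyond counting noise. The chi-square per degree of freedom was 1.92 in WT, 2.13 in R9Q, 69.0 in R9Q T102I, 159 in R9Q G265R and 173 in R9Q unc-16. The members and lists were chosen with earlier results of these data known, and lists were described without a test. Besides all members and hsp-70, the called gene, the text names the gene with the highest mean CPM of a list and the 5 genes most like pdi-6; trap-3 was added after its values were seen. Alternatives were DESeq2 1.42.0, other scaling, no filter, 4 libraries, a replicate block, a library-set term and each library left out.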

Additional observations from a re-analysis of the deposited data

How the results depend on the processing

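Of 136 values of pdi-6 and dnj-7 over the alternatives, 128 kept their direction and their side of the threshold, 6 came under an adjusted p of 0.05 and 2 turned sign. The 2 were R9Q T102I against R9Q with a term for the library set, at -0.14 for pdi-6 and -0.075 for dnj-7. Of the 9 members, 0 were called in each comparison. With no count filter 1 was called in R9Q unc-16 and 1 in R9Q G265R (pdi-6 in both, edgeR adjusted p = 0.00379 and 0.000750). Without the 3 low-mitochondrial libraries, which leaves 1 library in each suppressed strain, pdi-6 stood at 0.80 and 0.56 in those strains. Leaving out single libraries called 0 members. The number of genes called in R9Q unc-16, R9Q G265R, R9Q T102I (each against R9Q) and R9Q against WT was 82, 0, 69 and 38. It became 1264, 460, 795 and 322 with no filter, 1122, 229, 470 and 249 with the DESeq2 Wald test, 0, 0, 820 and 4158 with only the 4 libraries compared, 1535, 126, 493 and 225 with the library-set term, and 6563, 4399, 4675 and 4224 without the 3 libraries. With single libraries left out it ranged over 0 to 681, 0 to 13, 0 to 266 and 0 to 97. The cause was not tested. The replicate block gave 18, 0, 24 and 3, with pdi-6 at 1.20 and 1.44 in R9Q unc-16 and R9Q G265R. Deviations of same-numbered libraries correlated at -0.64 to 0.61 between strains. The large values were among the suppressed strains, where the low-mitochondrial library is replicate 1 in R9Q T102I and replicate 2 in R9Q G265R and R9Q unc-16. Pairs with WT or R9Q lay at -0.029 to 0.025. Whether same-numbered libraries belong together cannot be told from these values. Unique counts leave 7 of the 9 members without a testable value.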
